A study of Homo sapiens with 12 samples.

Results

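The phagocyte NADPH oxidase genes described here are CYBB, CYBA, NCF1, NCF4, RAC2, RAC1 and C17orf62. They were taken by symbol, 7 of the 60660 genes with values in both deposited tables, and they do not cover every subunit of the enzyme. The cells were HL-60, a cultured human line from a promyelocytic leukaemia, and messenger RNA was sequenced in bulk from 12 libraries. Of these, 3 were from cells transduced with a control vector, 3 from cells transduced with a JMJD3-expression vector, 3 from parental cells and 3 from JMJD3 knockout cells. JMJD3, the product of KDM6B, is a demethylase of lysine 27 on histone H3, where methylation marks silenced genes. Overexpressing cells were compared with vector control cells and knockout cells with parental cells, so the 2 comparisons share no library. The promoter of the vector, the edited site and the number of knockout clones are not given in the sources used here. Nor do they say whether replicates are independent cultures. The p-values therefore rest on the spread among these libraries, which could be technical only.

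The oxidase makes superoxide by passing electrons from NADPH across a membrane to oxygen. Its catalytic core is flavocytochrome b558, a pair of membrane proteins encoded by CYBB and CYBA. Cytosolic proteins encoded by NCF1 and NCF4 and a RAC GTPase join the core when the phagocyte is stimulated. C17orf62, also called CYBC1 or EROS, is a chaperone that the core proteins need to accumulate. Loss of the core or of a cytosolic subunit causes chronic granulomatous disease, in which neutrophils fail to kill certain microbes. HL-60 cells are known to acquire an active oxidase when they are induced to mature.

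Promoter sequence was matched to the 4 members in the RefSeq table used here (build GRCh38.p14), as the 250 bases before the RefSeq start. It is shown for the catalytic subunit CYBB, the organizer NCF1 and the core subunit CYBA, whose RNA levels behaved differently in the results below. Capitals mark matches on either strand to GAGGAA (the core of sites for the myeloid factor PU.1), CCAAT (the CCAAT box), GGGCGG (the GC box) or TATAAA (the TATA box). PU.1 is known to act on the CYBB and NCF1 promoters, and CCAAT-binding factors on that of CYBB. The windows are chrX:37779809-37780058 (plus strand), chr7:74773761-74774010 (plus strand) and chr16:88651054-88651303 (minus strand, printed in the direction of the gene).
CYBB: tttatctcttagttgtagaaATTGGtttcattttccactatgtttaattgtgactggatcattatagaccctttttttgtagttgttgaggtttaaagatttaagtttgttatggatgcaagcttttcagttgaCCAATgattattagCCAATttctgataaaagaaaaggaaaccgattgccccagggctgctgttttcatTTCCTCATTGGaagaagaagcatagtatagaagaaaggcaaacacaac
NCF1: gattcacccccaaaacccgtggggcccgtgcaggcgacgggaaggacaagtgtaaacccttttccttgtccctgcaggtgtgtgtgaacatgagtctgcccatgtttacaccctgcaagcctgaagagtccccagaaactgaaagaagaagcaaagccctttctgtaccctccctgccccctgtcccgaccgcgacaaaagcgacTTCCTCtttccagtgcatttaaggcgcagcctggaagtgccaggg
CYBA: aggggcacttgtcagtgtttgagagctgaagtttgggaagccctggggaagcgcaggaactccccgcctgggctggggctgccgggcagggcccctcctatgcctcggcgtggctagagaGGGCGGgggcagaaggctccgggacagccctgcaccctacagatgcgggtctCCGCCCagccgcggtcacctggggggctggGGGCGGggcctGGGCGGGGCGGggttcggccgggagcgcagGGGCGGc

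CYBB and NCF1 each held a single GAGGAA on the minus strand, at bases 48 to 43 before the start in CYBB and at bases 45 to 40 in NCF1. In CYBB it directly adjoined 1 of 4 CCAAT matches. CYBA held no GAGGAA and 6 GGGCGG matches, of which 2 overlapped by 1 base. The CYBC1 entry for C17orf62 (chr17:82449727-82449976, minus strand) held none of the 4 motifs. The GC content of the windows was 34.0% for CYBB, 56.4% for NCF1, 73.6% for CYBA and 58.0% for C17orf62. Among all 27305 RefSeq promoter windows of this length, 23.4% held GAGGAA, 33.0% CCAAT, 42.3% GGGCGG and 11.1% TATAAA. The gene models of GENCODE 29, an annotation of GRCh38, start further upstream than the RefSeq starts and lie partly inside the windows of CYBB, NCF1 and CYBA. Both GAGGAA matches lie inside these gene models and not before the GENCODE start. The same holds for all GGGCGG matches of CYBA but the one furthest upstream. The C17orf62 window lies wholly inside its GENCODE 29 gene (82442589 to 82450829). It is thus not sequence before the GENCODE start, and that sequence was not searched. NCF4, RAC2 and RAC1 were named only, with no sequence printed. A match of letters is a description and was not tied to binding in these cells.

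The libraries held 26861290 to 43647706 expected counts. Levels are given as CPM, the count of a gene relative to its library's total, scaled together over the 12 libraries by the trimmed mean of M values (TMM). Levels of different genes are compared as FPKM, which also divides by transcript length. The tables were deposited separately, so levels set across them are descriptions without a test. Replicates 3 stood apart in the overexpression table, where the chi-square per gene was 1.69 to 1.96 between replicates 1 and 2 of a group and 29.7 to 39.2 against replicate 3 (1 is counting noise). In the parental and knockout groups it was 4.55 to 14.4. KDM6B, the targeted gene, ranged from 24.9 to 35.5 CPM in the vector control and from 82.3 to 99.2 CPM in overexpressing cells (log2 fold change 1.57, SE 0.148). It ranged from 56.5 to 59.5 CPM in parental and from 36.6 to 45.2 CPM in knockout cells (log2 fold change -0.53, SE 0.0698), so the knockout libraries still held transcript of the gene. In FPKM, knockout replicate 2 (11.4) lay above all 3 parental libraries, and by limma on FPKM the KDM6B difference in knockout cells was not called (adjusted p 0.161 to 0.331).

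On JMJD3 overexpression, RNA of 5 oxidase genes rose: CYBB, NCF1, NCF4, RAC2 and C17orf62. RAC1 fell and CYBA was not called. The call rule was an adjusted p under 0.05 by edgeR's quasi-likelihood test with Benjamini-Hochberg adjustment over all 14322 genes tested. Under it 26.4% of all genes rose and 23.9% fell, and 50.3% were called in either direction. The libraries of the 2 groups did not overlap for 6 of the 7 members, against 59.2% of all genes. The median log2 fold change was 0.64 over the members and -0.0031 over all genes. All 7 members passed the expression filter in both comparisons. In bulk RNA, fewer cells with a transcript and less transcript per cell cannot be told apart.

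**Figure D1:**
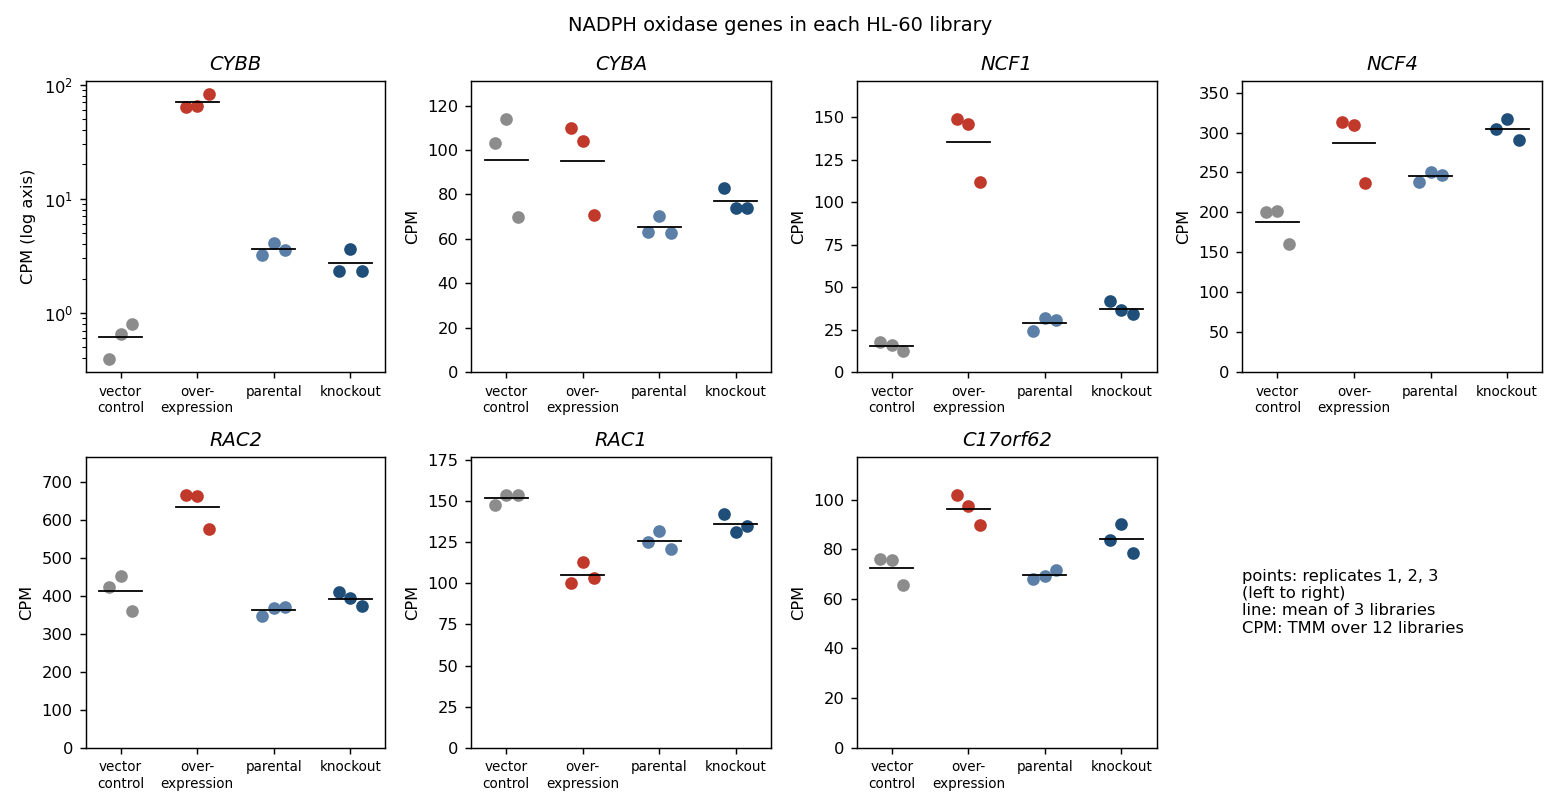
CPM of each oxidase gene (vertical axis, TMM-scaled over the 12 libraries) in the 4 groups (horizontal axis), with a point per library in order of replicate number and a line at the group mean. The CYBB axis is logarithmic and the others start at 0. CYBB and NCF1 are highest in all 3 overexpressing libraries, RAC1 is lowest there, and CYBA of the vector control and overexpressing groups overlaps, with replicate 3 lowest in both.

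CYBB (ENSG00000165168, GRCh38 chromosome X, 37780011 to 37813461, plus strand) encodes gp91phox, the subunit that carries the haems and the NADPH site. It was at 0.396, 0.654 and 0.795 CPM in the vector controls and at 64.0, 64.3 and 82.2 CPM in the overexpressing libraries. Behind these values stood 10, 19 and 29 expected counts in the vector controls and 1881, 2161 and 3476 in the overexpressing libraries. Every overexpressing library lay far above every control. This was a log2 fold change of 6.81 (SE 0.214, adjusted p 1.32e-06 by edgeR), or 112-fold. On log2(FPKM + 1), which understates changes of low genes, it was 4.0 by limma. In parental cells CYBB was at 3.21, 4.07 and 3.59 CPM and in knockout cells at 2.32, 3.62 and 2.33 CPM. Knockout replicate 2 lay within the parental range and the other knockout libraries below it. The difference of -0.37 (log2, SE 0.186) had an adjusted p of 0.13 by edgeR and was not called, while without knockout replicate 2 it was -0.61 with an adjusted p of 0.0168. Ordered by mean, CYBB was lowest in the vector control, then in knockout, parental and overexpressing cells. Of these neighbours, knockout and parental overlapped. The knockout mean was 4.49 times that of the vector control and the overexpressing mean 19.4 times that of the parental cells.

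CYBA (ENSG00000051523, GRCh38 chromosome 16, 88643283 to 88651152, minus strand) encodes p22phox, the partner that stabilises gp91phox and docks the cytosolic subunits. It was at 103, 114 and 69.8 CPM in the vector controls and at 110, 104 and 70.9 CPM in the overexpressing libraries. The groups overlapped, and within each group replicate 3 was the lowest. The log2 fold change was 0.02 (SE 0.212, adjusted p 0.957 by edgeR), and 0.02 with replicates 1 and 2 alone. In parental cells CYBA was at 63.3, 70.1 and 62.8 CPM and in knockout cells at 82.7, 73.8 and 74.1 CPM, with every knockout library above every parental one. By edgeR the log2 fold change was 0.24 (SE 0.0586, adjusted p 0.00361).

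The FPKM levels of the 2 core subunits were thus far apart. CYBB had a mean of 0.151 FPKM (SD 0.0522, n = 3) in the vector control against 181 FPKM (SD 39.1) for CYBA, and 17.6 (SD 3.03) against 183 (SD 34.1) in overexpressing cells. The CYBB to CYBA ratio of FPKM was 0.000506, 0.000728 and 0.00145 in the vector controls and 0.078, 0.0783 and 0.147 in the overexpressing libraries. Replicate 3 had the highest ratio in both groups, and the groups did not overlap. The mean log2 ratio, with 0.1 added to each FPKM, differed by 6.13 (exact two-sided permutation test, p = 0.1, the smallest that 3 against 3 allows). With 1 added to each FPKM it differed by 3.98. The ratio was 0.00697, 0.00795 and 0.00724 in parental and 0.00396, 0.00633 and 0.00429 in knockout libraries. All knockout values were lower, with a log2 difference of -0.59 (exact two-sided permutation p = 0.1). In all 12 libraries the CYBB level stayed below that of CYBA.

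C17orf62 (ENSG00000178927, GRCh38 chromosome 17, 82442589 to 82450829, minus strand) encodes the chaperone of the core. It was at 76.2, 75.8 and 65.5 CPM in the vector controls and at 102, 97.4 and 89.6 CPM in the overexpressing libraries, with no overlap. The log2 fold change was 0.44 (SE 0.086, adjusted p 0.00405 by edgeR), and with replicates 1 and 2 of each group summed into 1 library it was 0.45 with an adjusted p of 0.0523. It was at 67.9, 69.3 and 71.8 CPM in parental and at 83.9, 90.1 and 78.6 CPM in knockout libraries, again with no overlap (log2 fold change 0.28, SE 0.0513, adjusted p 0.000353). C17orf62 shares 57 exon bases (0.79% of its own) with HEXDC on the opposite strand, at 11.61 to 17.2 CPM. The kit does not mark strand, so reads over those bases cannot be told apart.

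NCF1 (ENSG00000158517, GRCh38 chromosome 7, 74773962 to 74789315, plus strand) encodes p47phox, the organizer that is phosphorylated on stimulation and then binds p22phox. It was at 17.9, 15.7 and 12.3 CPM in the vector controls and at 149, 146 and 112 CPM in the overexpressing libraries. The groups did not overlap, and replicate 3 was the lowest in each. NCF1 rose by a log2 fold change of 3.18 (SE 0.168, adjusted p 9.38e-06 by edgeR), or 9.07-fold. In parental cells NCF1 was at 24.4, 32.0 and 30.8 CPM and in knockout cells at 41.7, 36.3 and 34.2 CPM. Every knockout library lay above every parental one, with a log2 fold change of 0.37 (SE 0.106, adjusted p 0.02). Ordered by mean, NCF1 rose from vector control to parental, knockout and overexpressing cells, and no neighbours in that order overlapped.

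NCF1 lies between 2 near-identical pseudogenes on chromosome 7, NCF1B (73220624 to 73235945, plus strand) and NCF1C (75156639 to 75172044, minus strand). Over the 1396 bases of the NCF1 transcript, NCF1C was identical at 99.43% of 1394 aligned bases with 2 gap bases. NCF1B was identical at 98.97% of only 1167 aligned bases, with 90 gap bases. Of the 1297 windows of 100 bases in the NCF1 transcript, 64.5% occurred unaltered in a transcript of either copy, so reads from such windows cannot be assigned to a copy by sequence. The known landmark of the gene against its copies is a GT repeat, shown here in capitals. The NCF1 model held 2 units and the NCF1C model 1. It is not their only difference, since 8 of the aligned bases of NCF1C were mismatched.
NCF1: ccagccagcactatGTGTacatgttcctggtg
NCF1C: ccagccagcactatGTacatgttcctggtg

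Transcript models of NCF1B in GENCODE 29 held both forms, so the repeat alone does not separate NCF1B from NCF1. A single GT unit in NCF1 is a known cause of chronic granulomatous disease. The rows of both copies moved with that of NCF1: NCF1B rose by a log2 fold change of 3.46 and NCF1C by 3.78 on overexpression, and by 0.42 and 0.32 in knockout cells. The NCF1 row took 66.8%, 61.6% and 65.1% of the counts of the 3 rows in the vector controls and 57.6%, 58.1% and 56.4% in the overexpressing libraries. It took 57.5% to 59.9% in parental and 57.7% to 59.98% in knockout libraries. The vector control shares lay above those of all other libraries. With the 3 rows summed before the fit, the log2 fold change was 3.35 on overexpression (adjusted p 6.35e-06 by edgeR) and 0.37 in knockout cells (adjusted p 0.0371). How far each row holds reads of its own locus was not tested.

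**Figure D2:**
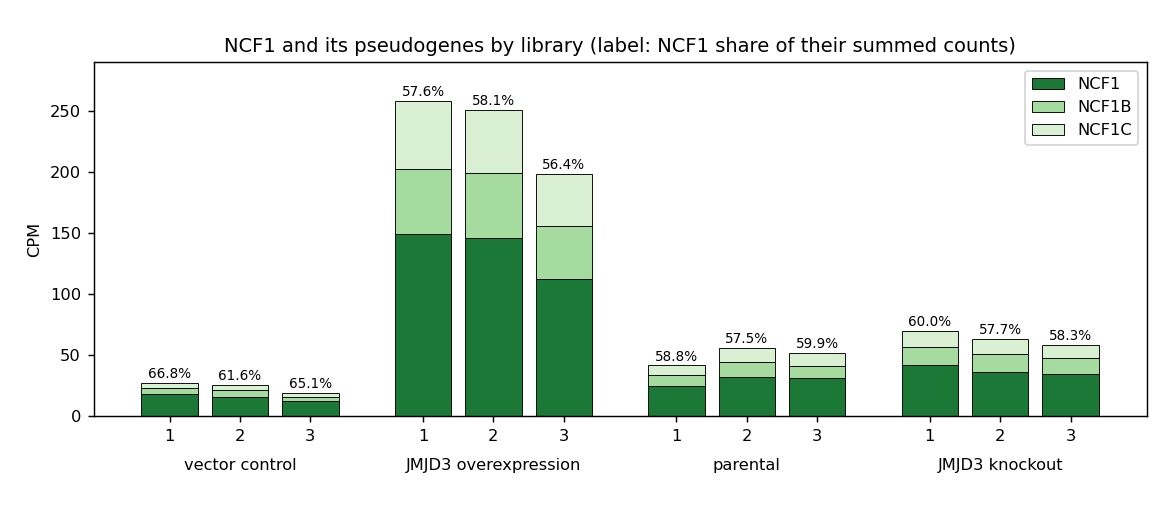
Stacked CPM (vertical axis) of NCF1 and its pseudogenes NCF1B and NCF1C in each of the 12 libraries (horizontal axis, replicate number within group), with the NCF1 share of their summed counts above each bar. All 3 rows are tallest in the overexpressing libraries, where the NCF1 share is 56.4% to 58.1%, against 61.6% to 66.8% in the vector controls.

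NCF4 (ENSG00000100365, GRCh38 chromosome 22, 36860988 to 36878015, plus strand) encodes p40phox, which binds the lipid phosphatidylinositol 3-phosphate on phagosomes. It was at 201, 202 and 160 CPM in the vector controls and at 313, 310 and 237 CPM in the overexpressing libraries. The groups did not overlap, although overexpressing replicate 3 was closer to the controls than the others. NCF4 rose by a log2 fold change of 0.64 (SE 0.132, adjusted p 0.00536 by edgeR). In parental cells it was at 238, 251 and 247 CPM and in knockout cells at 305, 317 and 291 CPM, with no overlap (log2 fold change 0.32, SE 0.0434, adjusted p 2.05e-05). Among the 7 members, NCF4 had the smallest adjusted p in the knockout comparison. By mean CPM the order was vector control, parental, overexpression and knockout, where overexpressing libraries overlapped with those of parental and knockout cells. NCF4-AS1 on the opposite strand shares 27 exon bases with NCF4 and was at 0.09 CPM or less.

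RAC2 (ENSG00000128340, GRCh38 chromosome 22, 37225261 to 37244448, minus strand) encodes the blood cell GTPase that serves the neutrophil oxidase. It was at 424, 453 and 361 CPM in the vector controls and at 666, 662 and 576 CPM in the overexpressing libraries, with no overlap. The log2 fold change was 0.65 (SE 0.0968, adjusted p 0.00114 by edgeR). In parental cells it was at 346, 369 and 370 CPM and in knockout cells at 409, 394 and 373 CPM. The groups were adjacent without overlapping, and the log2 fold change was 0.13 (SE 0.0454, adjusted p 0.037). That call was lost without parental replicate 1 (adjusted p 0.19) or knockout replicate 1 (0.165).

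RAC1 (ENSG00000136238, GRCh38 chromosome 7, 6374523 to 6403977, plus strand) encodes the widely expressed paralog that can serve the oxidase in monocytes and macrophages. It was at 148, 154 and 154 CPM in the vector controls and at 100, 113 and 103 CPM in the overexpressing libraries. Every overexpressing library was below every control, and RAC1 fell by 0.50 on the log2 scale (SE 0.0703, adjusted p 0.000795 by edgeR). In parental cells it was at 125, 132 and 121 CPM and in knockout cells at 142, 131 and 135 CPM. These groups overlapped, and the log2 fold change of 0.13 (SE 0.0483) had an adjusted p of 0.0493. The call was lost when parental replicate 1 (adjusted p 0.131) or 3 (0.154) or knockout replicate 1 (0.195) or 3 (0.11) was left out.

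The transcripts of RAC2 and RAC1 shared 0 windows of 100 bases, so their reads can be separated. The RAC2 to RAC1 ratio of FPKM was 2.91, 2.94 and 2.92 in the vector controls and 6.33, 5.96 and 6.24 in the overexpressing libraries. RAC2 was the more abundant in all libraries, and its lead over RAC1 was wider in each overexpressing library than in any control. The mean log2 ratio differed by 1.08 (exact two-sided permutation test, p = 0.1, the smallest possible). Replicate 3, which stood apart for CYBA and NCF1, lay between the others in both groups here. The ratio was 3.14, 3.11 and 3.65 in parental and 3.32, 3.63 and 3.27 in knockout libraries, which overlapped (log2 difference 0.05, exact two-sided permutation p = 0.6).

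**Figure D3:**
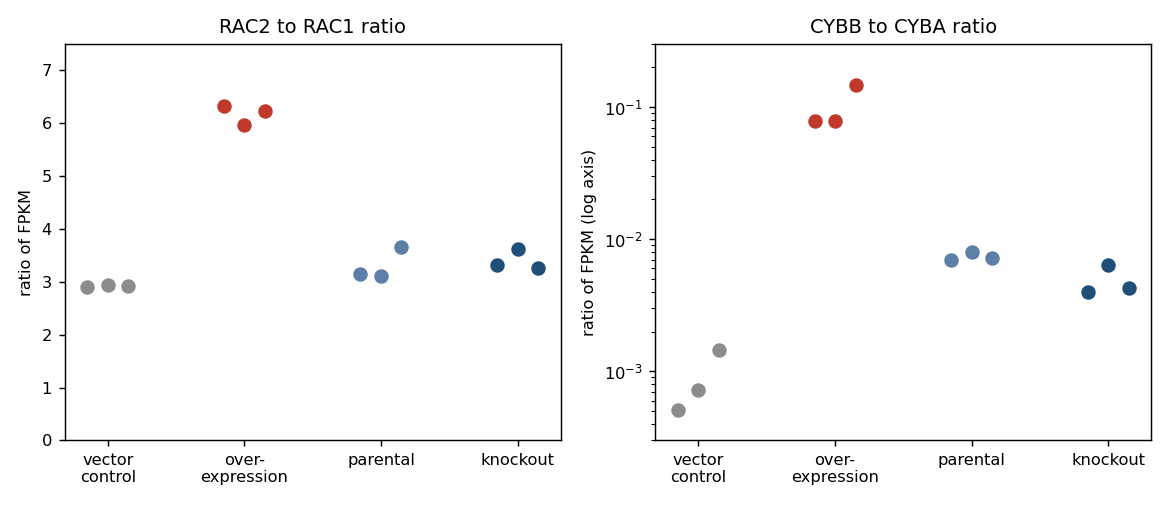
Ratio of FPKM (vertical axes) of RAC2 to RAC1 (left, linear axis from 0) and of CYBB to CYBA (right, logarithmic axis) in the 4 groups (horizontal axes), with a point per library. The RAC2 to RAC1 ratio is 5.96 to 6.33 in overexpressing libraries and 3.65 or less in all others, and the CYBB to CYBA ratio spans 0.000506 to 0.147.

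In knockout cells 6 of the 7 members were called higher, 0 lower, and CYBB was not called. Among all 14186 genes tested, 17.6% were called higher, 20.2% lower and 37.8% in either direction. The libraries did not overlap for 5 members (all but CYBB and RAC1), against 48.6% of all genes. The median log2 fold change was 0.24 over the members and -0.0022 over all genes. The rises were small, from 0.13 for RAC2 and RAC1 to 0.37 for NCF1. NCF1, NCF4, RAC2 and C17orf62 were called higher in both comparisons, RAC1 lower on overexpression and higher in knockout cells. On log2(FPKM + 1) values limma called only 3 members higher in knockout cells, namely CYBA, NCF4 and C17orf62. The authors' deposited table marked CYBB and NCF1 as significant on overexpression and no member in the knockout comparison. In the authors' deposited table the adjusted p in knockout cells was 0.136 for CYBB, 0.0561 for RAC2 and 0.0653 for RAC1, and from 1.28e-08 (NCF4) to 0.00122 (CYBA) for the other members, so their mark did not rest on the adjusted p alone.

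**Figure D4:**
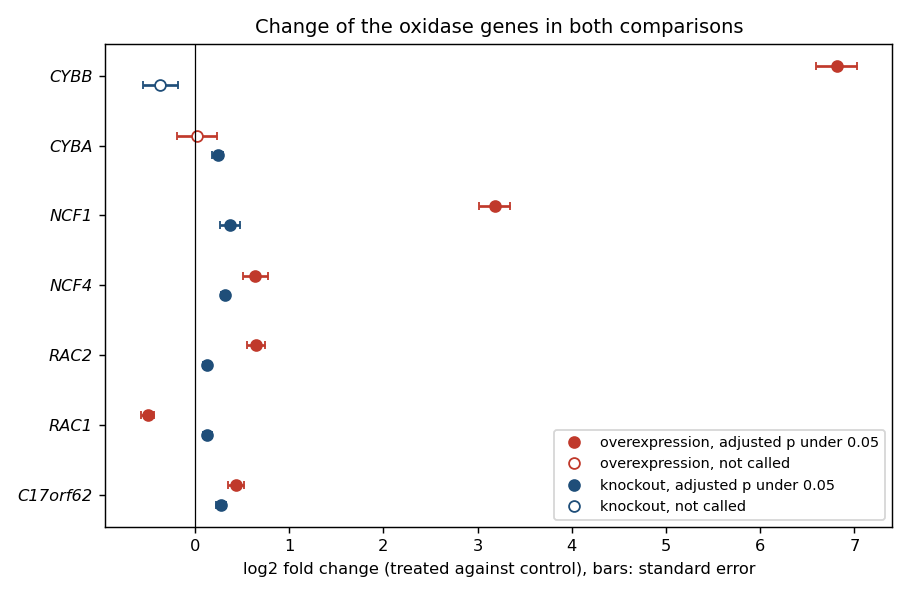
Log2 fold change (horizontal axis) of each oxidase gene (vertical axis) on JMJD3 overexpression and in JMJD3 knockout cells, each against its own control, with standard errors as bars. Filled points had an adjusted p under 0.05 by edgeR and open points did not. CYBB at 6.81 and NCF1 at 3.18 stand far to the right on overexpression, RAC1 lies at -0.50, and all knockout values lie between -0.37 and 0.37.

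The rises of CYBB and NCF1 on overexpression went with those of myeloid maturation markers. Of 7 neutrophil maturation markers 4 were measurable and all 4 rose, and their summed level went from 81.2 to 97.6 CPM in the vector controls to 1050 to 1120 CPM, most of it from S100A9. The defining late markers FCGR3B, MMP8 and LTF stayed at 0.102 CPM or less. Of 6 monocyte markers 4 were measurable and 3 rose (summed 26.0 to 27.8, then 118 to 123 CPM), mainly ITGAX, while CD14 and CD163 stayed at 0.238 CPM or less. Of 5 eosinophil and basophil markers 4 rose, among them HDC, and PRG2 fell, with sums of 2570 to 2790 and 2750 to 3050 CPM. HL-60 promyelocyte markers were split: of 6, 5 were measurable and 3 fell. Their sum went from 16800 to 20900 CPM to 8570 to 9600 CPM, most of it from MPO. On the log2 scale MPO fell by 1.05, PRTN3 by 3.75 and AZU1 by 1.85, while CD33 (0.09) and MYB (0.01) were not called. In knockout cells the neutrophil sum was 110 to 120 CPM in parental and 86.4 to 91.2 CPM in knockout libraries, and 2 of 4 measurable markers fell. Of 4 measurable monocyte markers 2 rose there (CSF1R by 1.88 and LYZ by 0.42 on the log2 scale) and ITGAX fell by 1.14, with sums of 43.3 to 48.8 and 49.3 to 51.9 CPM. Of 5 eosinophil and basophil markers CLC rose by 1.11 and HDC by 1.93 and PRG2 fell by 1.09, with sums of 1140 to 1410 and 587 to 761 CPM. Promyelocyte markers summed to 11300 to 11800 CPM in parental and 9350 to 10100 CPM in knockout libraries, with 3 of 5 lower and PRTN3 higher. The part of these cell state differences in the oxidase results was not tested. For HL-60 identity, MPO, PRTN3, MYB and CD33 were present in all libraries (MPO at 7920 CPM or more), whereas ELANE was at 0.158 CPM or less. The erythroid gene HBB, the platelet gene PF4 and the B cell gene MS4A1 were at 0 in all libraries, but other markers of these lineages were measurable. Of 5 erythroid and megakaryocytic markers only ITGA2B was measurable. It rose by 3.69 on overexpression and by 3.04 in knockout cells on the log2 scale. Of 6 lymphoid markers 4 were measurable on overexpression, where 2 rose and 0 fell. In knockout cells all 3 measurable lymphoid markers rose, among them CD79A by 1.23.

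Genes that work with the oxidase were read from 10 lists, described by counts and by their median log2 fold change. An exception is the list of the pseudogenes NCF1B and NCF1C, whose reads cannot be fully told apart from those of NCF1. Both were called higher in each comparison and are counted in the totals. On overexpression 54 of 117 list genes tested rose (46.2%, against 26.4% of all genes) and 23 fell (19.7%, against 23.9%). Scaling by library total moved the median of all genes by 0.14 on the log2 scale and gave 12 falls in the lists. Among all genes this scaling raised the share of rises among calls from 52.5% to 68.5%. With the replicate number as a block, 37 list genes fell. In knockout cells 35 of 112 list genes tested rose (31.2%, against 17.6% of all genes) and 30 fell (26.8%, against 20.2%). A list whose share is near that of all genes shows nothing about the list. The lists and the members were chosen with earlier results of these data known. Their shares set against all genes are therefore descriptions and no independent support. Since a gene high in only 1 group passes the expression filter, counts over measurable members lean to rises of genes that are near 0 in the control.

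Of the receptors that trigger the oxidase, 12 of 13 rose on overexpression and 0 fell (median log2 fold change 1.62). The shares of all genes were 26.4% and 23.9%. The platelet-activating factor receptor PTAFR went from 9.29 CPM (SD 0.345, n = 3) to 61.6 CPM (SD 2.98). The subunits of the complement receptor CR3 rose as well, ITGAM from 5.92 to 60.9 CPM and ITGB2 from 71.7 to 368 CPM. In knockout cells 0 of 12 measurable receptors rose and 8 fell (median -0.30), against 17.6% and 20.2% of all genes. The C5a receptor C5AR1 went from 12.2 CPM (SD 0.850) in parental to 1.35 CPM (SD 0.821) in knockout cells, and ITGB2 (-0.28) and the G-CSF receptor CSF3R (-0.32) fell by less on the log2 scale.

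Upstream of the oxidase, 11 of 20 kinases, lipid enzymes and phosphatases rose on overexpression and 1 fell (median 0.41). Among all genes tested, 26.4% rose and 23.9% fell there. The protein kinase C genes PRKCA and PRKCB, whose products phosphorylate p47phox, rose by 1.12 and 1.13 on the log2 scale, and PIK3R5, a regulatory subunit of the receptor-coupled PI3 kinase, rose by 0.88. In knockout cells 9 of 20 rose and 3 fell (median 0.08), against 17.6% and 20.2% of all genes. PRKCD rose by 0.44, PIK3CB by 0.40 and PIK3C3 by 0.39 there. PIK3C3 makes the lipid that p40phox binds. Of 19 other small GTPases and their regulators, 6 rose and 4 fell on overexpression (median 0.09). In knockout cells 7 rose and 3 fell (median 0.10). The overexpression counts lie near the shares of all genes and show nothing about this list. The RAC exchange factors PREX1 and TIAM1 rose by 1.64 and 2.66 on overexpression, and the RAC inactivator ARHGAP25 rose by 1.05. In knockout cells ARHGDIA and ARHGDIB, which hold such GTPases in the cytosol, rose by 0.27 and 0.28. TIAM1 had 318 expected counts over the parental and 1 over the knockout libraries, a ratio of 253 (95% exact counting interval 45.0 to 10000, which covers counting error only).

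Of 21 transcription factors known to act on oxidase gene promoters, 16 were measurable on overexpression, where 7 rose and 3 fell (median 0.18). The shares of all genes were 26.4% and 23.9%. FOS went from 5.58 to 41.9 CPM, IRF2 from 12.5 to 27.6 CPM and GATA1 from 0.158 to 1.88 CPM. SPI1, which encodes PU.1, the factor of the GAGGAA motif printed above, was at a mean of 383 CPM in vector control and 441 CPM in overexpressing cells and was not called (log2 fold change 0.23, adjusted p 0.365 by edgeR). In knockout cells 3 of 14 rose and 6 fell (median -0.12), against 17.6% and 20.2% of all genes. SPI1 fell from 313 CPM (SD 10.2, n = 3) to 243 CPM (SD 12.2), a log2 fold change of -0.35 (adjusted p 1.37e-05), while CEBPA rose by 1.12 and GATA2 by 0.41. On overexpression CEBPA was among the 3 that fell (log2 fold change -1.26 with an adjusted p of 0.000209 by edgeR). The related CEBPB went the other way. It rose by 1.44 on overexpression (adjusted p 0.00641 by edgeR) and fell by 1.01 in knockout cells (adjusted p 0.00316). CEBPE was not called on overexpression (-0.37) and fell by 0.14 in knockout cells.

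The remaining lists cover the chemistry around the enzyme. Of 6 charge compensation and ion channel genes, 4 rose on overexpression and 0 fell (median 0.51). The proton channel HVCN1, which balances the charge the oxidase moves, rose by 0.57, TRPM2 by 0.46 and KCNN4 by 1.66 on the log2 scale. In knockout cells 2 rose, KCNN4 from 0.989 to 10.1 CPM and HVCN1 by 0.29, and 2 fell. Of 13 NADPH supply genes 4 rose and 1 fell on overexpression (median 0.10), where 26.4% of all genes rose. The myeloid hexokinase HK3 went from 5.36 to 36.0 CPM and TALDO1 fell by 0.22 on overexpression. In knockout cells 3 supply genes rose and 4 fell (median -0.06), with ME2 at 0.29 and ME1 at -0.35. Among all genes 17.6% rose and 20.2% fell there.

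Genes that handle superoxide and peroxide went mostly the other way on overexpression, with 2 of 14 measurable genes higher and 8 lower (median -0.50). Among all genes 26.4% rose and 23.9% fell on overexpression. The cytosolic superoxide dismutase SOD1 went from 243 CPM (SD 7.65, n = 3) to 133 CPM (SD 1.73), and PRDX6, a peroxiredoxin known to bind the oxidase, fell by 0.76. PRDX2 rose, from 0.0498 to 2.63 CPM. In knockout cells 7 of 13 rose and 1 fell (median 0.16). GPX1 rose by 0.45 and PRDX1 by 0.24, and MPO, which turns hydrogen peroxide into hypochlorous acid, fell by 0.28. Of 11 haem genes 4 rose and 5 fell on overexpression (median -0.17), with the rate-limiting enzyme ALAS1 at 0.95, PPOX at 0.71 and the haem-degrading enzyme HMOX1 at 4.30. In knockout cells 2 rose and 2 fell (median 0.09), namely UROD (0.22), ALAD (-0.21), BLVRB (-0.50) and CPOX (0.18), the last named after its value was seen. Among all genes 17.6% rose and 20.2% fell in knockout cells. The haem counts there lie near these shares and show nothing about the list. Of the 12 other NOX and DUOX oxidase genes and partners, NOX1, NOX3, NOX4, NOX5, DUOX1 and DUOX2 did not reach the filter in either comparison. NOXA1 rose by 2.36 on overexpression and fell by 1.46 in knockout cells, NOXO1 fell by 2.02 on overexpression and was at 0.42 in knockout cells without being called, and SH3PXD2B rose by 4.50, to 1.30 CPM.

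**Figure D5:**
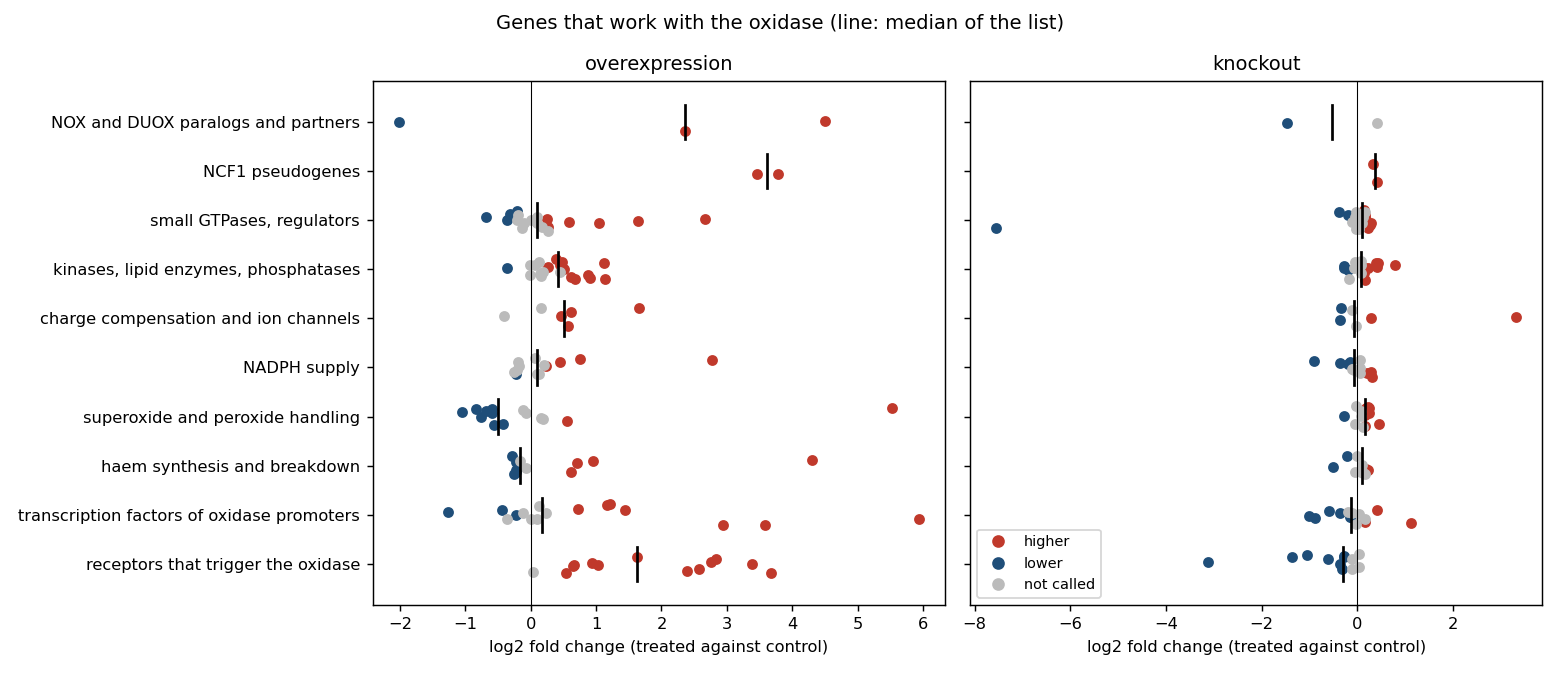
Log2 fold change (horizontal axes) of the measurable genes of 10 lists (vertical axis) on JMJD3 overexpression (left) and in knockout cells (right), coloured by call, with a line at each list's median. Receptors lie mostly to the right on overexpression (median 1.62) and to the left in knockout cells (median -0.30), and superoxide and peroxide handling genes lie mostly to the left on overexpression (median -0.50).

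Likeness of profile to each member was measured across the 12 libraries as the root mean square difference between log2(CPM + 1) profiles, each centred within its table, over 9692 genes. This scale understates changes of low genes, and the libraries are shared by all genes compared. Nearest to CYBB (range 5.90) were the complement receptor CR1 (0.182) and the integrin ITGAX (0.272). Near to NCF1 (range 3.50) was the chemokine gene CCL5 (0.127). The members with smaller ranges had closer neighbours: BATF (0.0336) and UBE2S (0.0454) for CYBA, AGRN (0.0533) and PNKD (0.056) for NCF4, and CTSD (0.0329) and MAN2B1 (0.0424) for RAC2. For RAC1 they were PSMD6 (0.0406) and SDHA (0.0411), and for C17orf62 ADCY7 (0.0537) and MEF2D (0.0576). CTSD and MAN2B1 encode lysosomal enzymes and PSMD6 a proteasome subunit.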

How the data were processed

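Bulk RNA-seq was analysed in 12 HL-60 libraries, 3 per group, grouped by sample title. The members, gene lists and markers were chosen with earlier results of these data known, and the 7 members do not cover every subunit of the oxidase. Trizol RNA went into Illumina TruSeq RNA libraries, per the labels' protocols. Named in the submitters' processing notes are the build GRCh38 and the tools RSEM, edgeR, TopHat2 2.0.4 and CASAVA 1.8, while the design text adds BWA, Cufflinks and an analysis of variance. For no column is the tool that made it given in the sources used here.

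Per the file headers, the authors deposited counts and FPKM per sample in a table per comparison (60660 genes for overexpression, 60662 for knockout), together with log2 fold changes and adjusted p-values of their own. As read from the values, the deposited count columns are expected counts multiplied by 1 factor per library (0.772 to 1.197). Dividing it out left 92.91% to 94.05% of values of 1000 or less whole within 0.02, and the expected counts were then rounded. For overexpression, 13 empty lines were left out and 28 symbols turned into dates were restored.

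The 6 libraries of a comparison were fitted by themselves with the robust quasi-likelihood test of edgeR 4.0.16 (R 4.3.3, TMM scaling, default filter), called at a Benjamini-Hochberg adjusted p under 0.05, and the procedure was tested on simulated data. The simulated replicates were drawn independently of each other. They therefore do not cover the overexpression comparison, where replicate 3 stood apart from replicates 1 and 2. Ratios of FPKM were compared with exact permutation tests, with 0.1 added for CYBB and CYBA. Alternatives used DESeq2 1.42.0 and limma 3.58.1, the last on FPKM. Genes were named by rule: the members and KDM6B, up to 3 called genes per list by p, all of a list with at most 3 measured genes, and the 2 genes nearest in profile. SPI1 and CEBPA on overexpression, CEBPB and CEBPE in both comparisons and the single markers were added to these. Some genes that the rule takes are left out of the text. Library totals (26861290 to 43647706) set the precision at low counts.

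Deviations from the group means of same-numbered libraries correlated at 0.199, 0.238 and 0.553 across genes in the overexpression comparison. Control 1 with overexpressing 2 and control 2 with overexpressing 1 gave 0.203 and 0.255, so replicates 1 and 2 were not matched by number. Pairs of a replicate 3 with another number lay between -0.383 and -0.312. No label states a pairing. The main fit took the libraries as unpaired, and the replicate number as a block was an alternative.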

Additional observations from a re-analysis of the deposited data

How the results depend on the processing

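On overexpression the calls of CYBB, NCF1, NCF4, RAC2 and RAC1 were kept in all 18 alternatives, and that of C17orf62 in 17. With replicates 1 and 2 alone, a choice made after the data were seen, 5 members were again called higher and 1 lower. CYBA was not called in any alternative. Its log2 fold change ran from -0.15 (without vector control replicate 3) to 0.18 (without overexpression replicate 3) with 1 library left out, and was -0.10 and -0.06 without overexpression replicates 1 and 2. In knockout cells NCF4 was called in all 18 alternatives, CYBA and C17orf62 in 17, NCF1 in 14, RAC2 in 10 and RAC1 in 5. The count of members called higher in knockout cells was 3 with the replicate block, 3 with limma on log2(FPKM + 1) or log2(FPKM + 0.1), and 1 with limma and no filter. With 1 library left out it was 4 to 6, and the count called lower 0 to 1. Same-numbered libraries correlated at 0.0359, -0.123 and -0.0694 there, and the main fit took no pairs in either comparison. In the overexpression comparison the replicate block changed no member's call.

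List genes called lower on overexpression numbered 12 by library total, 14 by upper quartile, 37 with the replicate block, 10 with replicates 1 and 2 summed, 12 with limma and no filter, 37 with replicates 1 and 2 alone, and 15 to 24 with 1 library left out. In knockout cells they numbered 14, 13 and 8 with limma on log2(FPKM + 1), on log2(FPKM + 0.1) and with no filter, and 13 list genes were then called higher with no filter. With 1 library left out, 47 to 60 list genes were called higher on overexpression, and 26 to 35 higher and 26 to 30 lower in knockout cells. The log2 RAC2 to RAC1 difference in knockout cells was -0.000115 from counts over implied length. The cause of these shifts was not tested. Depth limits CYBB in the vector control, at 10 to 29 expected counts.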

Other observations

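Some genes around the oxidase stood at opposite ends in the 2 comparisons, a pattern picked out after the values were seen. The RAC exchange factor TIAM1 had means of 1.98, 12.3, 2.72 and 0.0116 CPM in vector control, overexpressing, parental and knockout cells. NOXA1, an activator of the NOX1 oxidase, had means of 0.729, 3.71, 1.47 and 0.519 CPM in the same order. The C5a receptor C5AR1 had means of 2.38, 7.13, 12.2 and 1.35 CPM, so that it was higher in parental than in overexpressing cells. KCNN4, a calcium-activated potassium channel, was instead higher in both treated groups, at 2.08, 6.46, 0.989 and 10.1 CPM. No test was made across the tables.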
